A study of Mus musculus with 3 samples.

Results

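TRAV5 is a small family of variable genes of the T cell receptor α chain (TRA), and its members were followed here in T cells of inflamed nerve. The members were all productive TRA contigs of called cells whose V gene name was TRAV5 followed by a copy name. They made up 332 of 3325 TRA rearrangements and were found in 549 of 5269 cells with a TRA. Contigs of a library that shared V gene, J gene and every CDR3 base were counted as 1 rearrangement. The CDR3 is the loop that spans the V–J junction.

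The assay was 10X Genomics scTCR-Seq of CD45+ cells sorted from sciatic nerves of neuropathic NOD.AireGW/+ mice. These nonobese diabetic (NOD) mice carry 1 copy of the partial loss-of-function GW allele of Aire, the gene that lets thymic epithelium display tissue antigens, and develop spontaneous autoimmune neuropathy. There were 3 libraries of this 1 condition. Replicates 1 and 2 came from 1 mouse each, replicate 3 came from 2 mice together, and the mice were female by the study's methods. No untreated, wild-type or other-tissue group was analysed here, so no comparison of conditions was made.

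An α chain is made by joining 1 TRAV gene to 1 TRAJ gene. In mice the TRAV genes occur in several near-identical copies, named with D or N. The TRAJ genes form a row that is numbered downwards, so that high numbers lie nearest the V genes. A TRA locus can rearrange again after a first join, using V genes and TRAJ genes that lie further apart. In NOD mice, TRAV5D-4 is known as the α chain V gene of many T cells that recognise the insulin B chain peptide, and TRAJ53 is known as a joining gene of such receptors. Antigen recognition was not measured here.

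Replicate 1 had 1989 cells with a TRA and 13202 TRA UMIs, replicate 2 had 2819 cells and 13491 UMIs, and replicate 3 had 461 cells and 1685 UMIs. TRAV5 contigs carried 963, 1459 and 165 of these UMIs. Their median was 5, 3 and 3 UMIs a contig, against 5, 3.5 and 3 for other TRA, so the family was read about as deeply as the rest. Across library pairs, 10 cell barcodes were shared. Of these, 1 had a TRAV5 chain in either library, and it did not carry the same TRAV5 rearrangement in both. This count is too small to test carry-over between libraries. Intervals of shares are exact 95% Clopper-Pearson intervals, and those of odds ratios are exact 95% intervals with the libraries as strata. Both cover counting error only. Where nothing was counted, the limit given in the text is 3 counts over the total.

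The family occurred under 3 names, TRAV5-1, TRAV5-4 and TRAV5D-4. TRAV5N-4 was not named on any contig, in cells or outside them. The V regions are shown because the names rest on few bases. Replicates 2 and 3 gave the sequence from framework 1 to framework 3, 267 bases, and each name had exactly 1 sequence on all of its contigs (69 of TRAV5-1, 258 of TRAV5-4 and 62 of TRAV5D-4). Capitals mark bases that differ between TRAV5-4 and TRAV5D-4, or, in TRAV5-1, from TRAV5-4.
TRAV5-4: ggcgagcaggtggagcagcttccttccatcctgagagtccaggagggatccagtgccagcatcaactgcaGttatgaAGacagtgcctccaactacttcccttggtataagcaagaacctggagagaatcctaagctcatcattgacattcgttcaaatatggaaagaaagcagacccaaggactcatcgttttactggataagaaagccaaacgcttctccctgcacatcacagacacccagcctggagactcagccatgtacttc
TRAV5D-4: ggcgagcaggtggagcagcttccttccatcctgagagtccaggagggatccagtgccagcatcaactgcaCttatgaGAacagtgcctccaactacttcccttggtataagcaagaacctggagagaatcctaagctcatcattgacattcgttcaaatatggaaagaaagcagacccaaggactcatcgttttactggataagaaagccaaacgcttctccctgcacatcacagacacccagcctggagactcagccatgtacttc
TRAV5-1: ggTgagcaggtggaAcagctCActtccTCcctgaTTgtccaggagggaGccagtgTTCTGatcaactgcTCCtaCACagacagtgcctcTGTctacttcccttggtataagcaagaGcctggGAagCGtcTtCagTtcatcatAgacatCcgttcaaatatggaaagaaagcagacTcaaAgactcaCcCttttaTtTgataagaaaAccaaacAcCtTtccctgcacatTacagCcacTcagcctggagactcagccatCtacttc
TRAV5-4 and TRAV5D-4 differed at 3 of the 267 bases. Counted from the first base of framework 1 and written with the TRAV5-4 base first, these were G71C, A78G and G79A. They gave S24T and D27N, the latter in the first codon of CDR1, and left codon 26 with the same residue. TRAV5-1 differed from TRAV5-4 at 47 bases and from TRAV5D-4 at 48.

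In the reference genome GRCm38 (the build also named mm10) all functional copies lie on the plus strand of chromosome 14, and the sequences above match exon 2 of 2 of each gene. The TRAV5-1 sequence matched chr14:52622803-52623069 with 1 difference, C22A (reference base first). TRAV5-4 matched chr14:53704235-53704501 with 2, T176C and A182G, which give I59T and E61G. At both positions it carried the base found in the TRAV5D-4 sequence above, and it differed from reference TRAV5D-4 at 4 bases. TRAV5D-4 matched chr14:53001953-53002219 with 1 difference, T3C, which leaves the residue the same. It matched TRAV5N-4 at chr14:53313143-53313409 equally well, because the reference sequences of TRAV5D-4 and TRAV5N-4 are identical over these 267 bases. The name TRAV5D-4 therefore cannot be told apart from TRAV5N-4 by this stretch, and the absence of the name TRAV5N-4 sets no limit on the use of that copy. In this reference TRAV5-1 lies 1532 kb, TRAV5D-4 1153 kb and TRAV5-4 450 kb before the first TRAJ gene. TRAV5N-4, which the name TRAV5D-4 may cover, lies 842 kb before it. The positions of the copies in these NOD mice were not measured. The reference also annotates 5 TRAV5 pseudogenes, none of which was named on a contig. V sequences of replicate 1 were not given in its annotation.

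TRAV5-4 was the main copy in every library. It gave 69 of 1231 TRA rearrangements in replicate 1 (5.61%, interval 4.39% to 7.04%), 109 of 1700 in replicate 2 (6.41%, 5.29% to 7.68%) and 25 of 394 in replicate 3 (6.35%, 4.15% to 9.22%). TRAV5D-4 gave 24, 45 and 6 rearrangements, or 1.95%, 2.65% and 1.52%. TRAV5-1 gave 20, 29 and 5, or 1.62%, 1.71% and 1.27%. The intervals of TRAV5-4 lay above those of both other copies in all 3 libraries, while those of TRAV5-1 and TRAV5D-4 overlapped in each. TRAV5-4 thus held 63.4% ± 5.33 of the family's rearrangements (SD, n = 3 libraries), TRAV5D-4 20.8% ± 3.98 and TRAV5-1 15.8% ± 1.91.

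**Figure D1:**
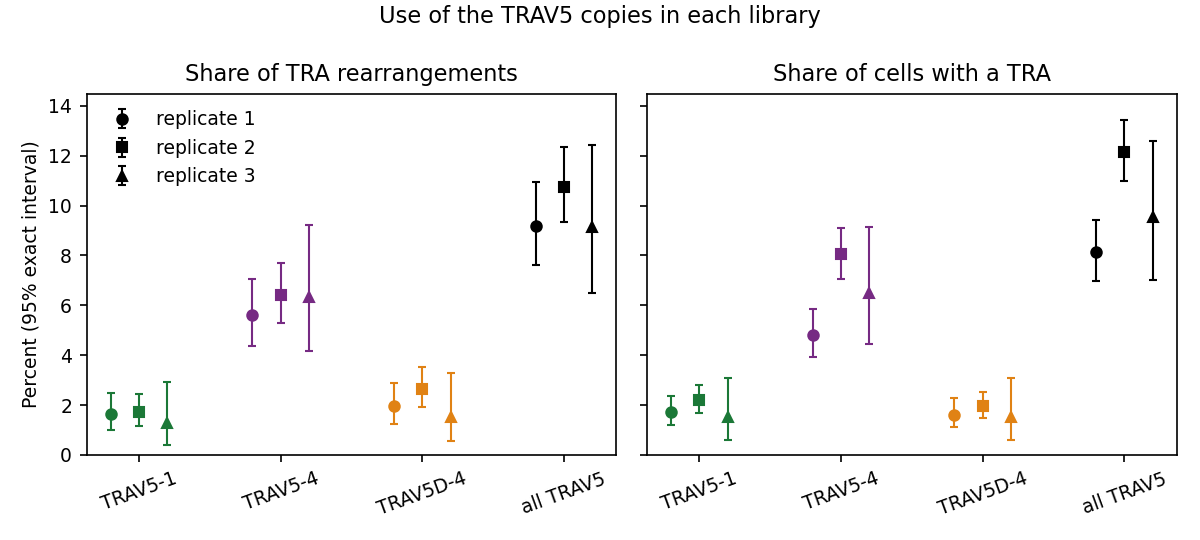
Share of TRA rearrangements (left) and of cells with a TRA (right), in percent, for each TRAV5 copy and the whole family in the 3 libraries, with exact 95% intervals. TRAV5-4 lies above the other copies everywhere, and its share of cells is highest in replicate 2, at 8.05%.

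Counted in cells, TRAV5-4 was carried by 96 in replicate 1, 227 in replicate 2 and 30 in replicate 3. These were 4.83% (interval 3.93% to 5.86%), 8.05% (7.07% to 9.12%) and 6.51% (4.43% to 9.16%) of the cells with a TRA. Cells of 1 clone are not independent, so these intervals do not compare the libraries. In replicate 2, 35 and 20 of the 227 cells belonged to 1 rearrangement each. TRAV5-1 was in 34, 62 and 7 cells and TRAV5D-4 in 32, 55 and 7. The family as a whole was in 8.14%, 12.2% and 9.54% of cells with a TRA, a mean of 9.95% ± 2.04 (SD, n = 3), against 9.69% ± 0.928 of the rearrangements.

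Among TRAV families, TRAV6 with 11 gene names gave 15.5% ± 0.399 of the rearrangements and TRAV7, also with 11, gave 11.2% ± 0.355. TRAV5 reached 9.69% with 3 names and did not differ from TRAV9 (9.81% ± 0.957) beyond the spread between libraries. TRAV4 gave 5.39% ± 0.648. As a single gene, TRAV5-4 with 203 rearrangements was second among 68 TRAV names and 1 rearrangement behind TRAV6N-7 with 204.

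TRAV5-4 joined TRAJ genes of higher number than TRAV5D-4 and TRAV5-1 did, although the stretches used overlapped. TRAV5-4, the copy nearest the TRAJ genes in the reference, had a median TRAJ number of 43, 43 and 40 in replicates 1, 2 and 3. TRAV5D-4 had 30, 26 and 23.5 and TRAV5-1, the most distant copy in the reference, had 25, 27 and 24. All other TRA had 33, 32 and 33. In each library TRAV5-4 thus lay above the other TRA and both other copies lay below them. TRAV5-1 used TRAJ genes from TRAJ6 to TRAJ45, TRAV5D-4 from TRAJ5 to TRAJ52 and TRAV5-4 from TRAJ5 to TRAJ58.

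**Figure D2:**
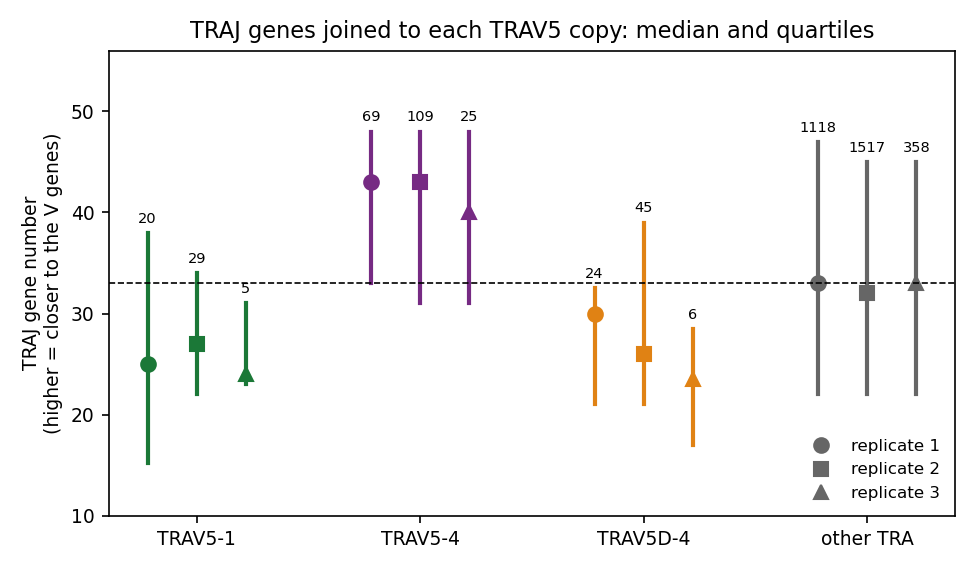
TRAJ gene number (vertical axis, higher numbers lie closer to the V genes) of the rearrangements of each TRAV5 copy and of all other TRA, as median (symbol) and quartiles (line) in each library, with the number of rearrangements above each line and the median of all TRA, 33, dashed. The medians of TRAV5-4, 40 to 43, lie above the dashed line, and those of TRAV5-1 and TRAV5D-4, 23.5 to 30, lie below it.

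This was tested for every TRAV gene with at least 10 rearrangements by the share that used a TRAJ number above 33, the median of all TRA, in a two-sided exact test with the libraries as strata and Benjamini-Hochberg adjustment over the 55 TRAV genes. The test was added after these medians had been seen. It called 24 of 55 TRAV genes (43.6%), 12 in each direction, so an uneven use of the TRAJ row was common among V genes. TRAV5-4 used such a TRAJ in 49 of 69, 70 of 109 and 18 of 25 rearrangements, 137 in all against 99.4 expected (odds ratio 2.27, interval 1.66 to 3.12, adjusted p = 8.5e-07, exact test). TRAV5D-4 did so in 6 of 24, 12 of 45 and 0 of 6, 18 against 36.7 expected (odds ratio 0.323, 0.178 to 0.559, adjusted p = 6.9e-05, exact test). TRAV5-1 did so in 8 of 20, 8 of 29 and 1 of 5, 17 against 26.5 expected (odds ratio 0.473, 0.248 to 0.865, adjusted p = 0.032, exact test). The call of TRAV5-1 was lost without replicate 2 (adjusted p = 0.53, exact test) and without replicate 3 (0.055), and with contigs of at least 3 UMIs (0.124). Between the near-identical copies TRAV5-4 and TRAV5D-4, the odds ratio of the first over the second was 6.43 (interval 3.42 to 12.6). That of TRAV5-1 over TRAV5D-4 was 1.45 (0.615 to 3.44), an interval that includes 1. These tests compare rearrangements as units, so they do not measure the spread between mice.

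For single TRAJ genes, the family as a whole gave no call. The exact stratified test of TRAV5 against all other TRA covered 42 TRAJ genes with at least 10 rearrangements and called 0 (0%) after Benjamini-Hochberg adjustment, while 8 had an unadjusted p under 0.05. The 5 most frequent were TRAJ31 with 26 rearrangements, TRAJ45 with 22, TRAJ40 with 21, TRAJ43 with 16 and TRAJ23 with 15. TRAJ45 occurred in 6, 14 and 2 rearrangements against 11.7 expected in all (adjusted p = 0.055, exact test). TRAJ37 occurred in 2, 0 and 0 against 10.8 expected (adjusted p = 0.055, exact test). The count of 0 calls depended on replicate 1: without it TRAJ12, TRAJ31, TRAJ37 and TRAJ45 were called, and with at least 3 UMIs TRAJ38, TRAJ45 and TRAJ57 were.

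Each copy was then set against TRA outside the family. Over the 126 tests of copy and TRAJ gene together, 2 (1.59%) were called. TRAV5-1 was joined to TRAJ38 in 4, 1 and 0 rearrangements, 5 in all against 0.516 expected (odds ratio 12.6, interval 3.59 to 35.6, adjusted p = 0.016, exact test). TRAV5-4 was joined to TRAJ43 in 6, 8 and 1, 15 in all against 5.74 expected (odds ratio 3.09, 1.61 to 5.55, adjusted p = 0.028, exact test). Neither call held without replicate 1 (adjusted p = 0.80 and 0.29, exact tests), and that of TRAJ43 was also lost without replicate 2 (0.239) and with at least 3 UMIs (0.092). That of TRAJ38 was lost when rearrangements were counted by amino acids (0.052). Adjusted within each copy, 1 of 42 TRAJ genes (2.38%) was called for TRAV5-1, 5 of 42 (11.9%) for TRAV5-4 and 0 of 42 (0%) for TRAV5D-4, where 3 had an unadjusted p under 0.05. The further calls of TRAV5-4 were TRAJ50 (13 against 5.08 expected), TRAJ45 (15 against 6.96), TRAJ37 (0 against 6.72) and TRAJ12 (0 against 5.35). The TRAJ gene with the lowest p for TRAV5D-4 was TRAJ21, with 7 against 1.86 expected (adjusted p over all copies 0.056, exact test).

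**Figure D3:**
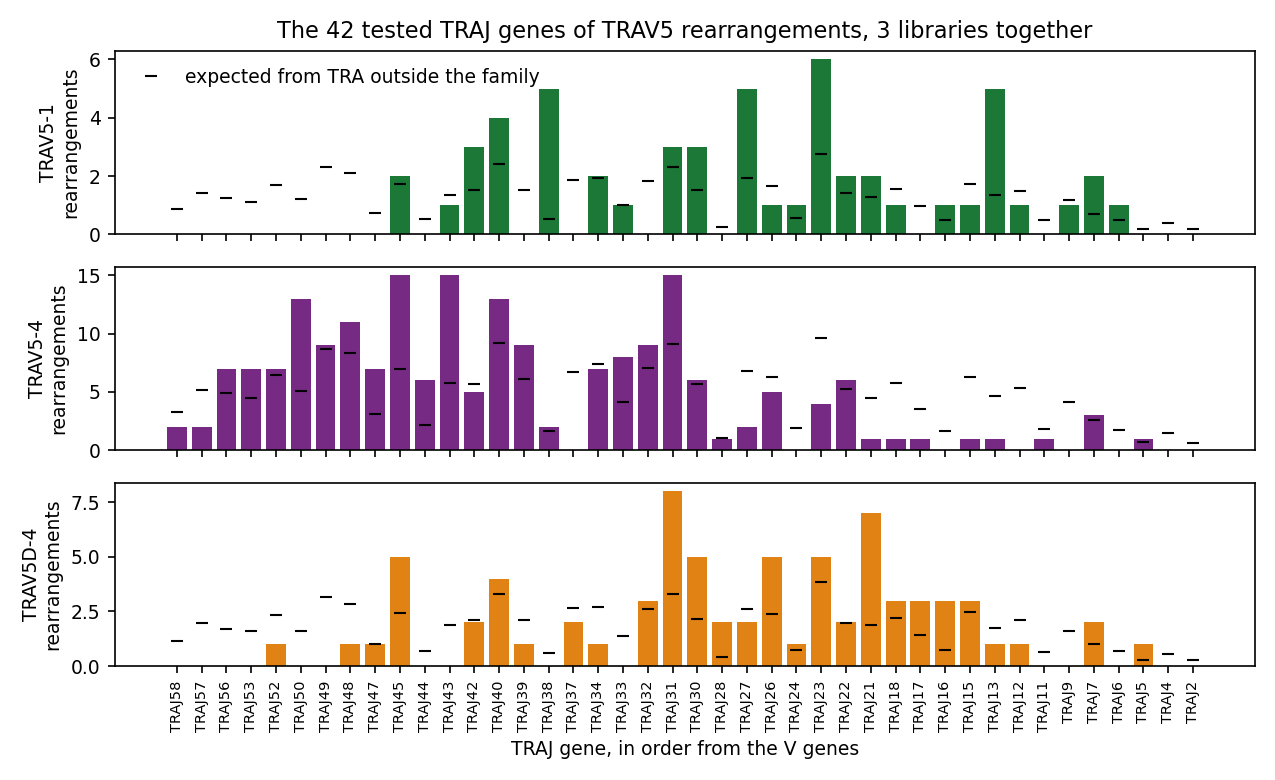
Number of rearrangements (vertical axis, scaled for each copy) of TRAV5-1, TRAV5-4 and TRAV5D-4 with each of the 42 tested TRAJ genes. The genes stand in order from the V genes, for the 3 libraries together. Black marks are the counts expected at an odds ratio of 1, from the copy and TRA outside the family pooled within each library. Bars of TRAV5-4 crowd to the left and those of TRAV5D-4 to the right, and TRAJ38 with 5 TRAV5-1 rearrangements stands over an expected count of 0.516.

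TRAJ53 was joined to TRAV5-4 in 7 of 203 rearrangements (3.45%, interval 1.40% to 6.98%), with 2 in replicate 1, 3 in replicate 2 and 2 in replicate 3, and these were in 8 cells. Other TRA used TRAJ53 in 62 of 2993 (2.07%). TRAV5D-4 was joined to TRAJ53 in 0 of 75 rearrangements, which allows a share of up to 4%, and TRAV5-1 in 0 of 54, which allows up to 5.56%. A chain named TRAV5D-4–TRAJ53 was thus not detected at this depth, and 1.60 were expected from TRAV5D-4 and TRA outside the family pooled. TRAV5D-4 also had 0 rearrangements with TRAJ56, TRAJ57 and TRAJ58, against 1.71, 1.98 and 1.17 expected. Its highest TRAJ was TRAJ52, so the 0 at TRAJ53 was shared with the tested TRAJ genes of higher number. Only the 3 bases given above separate the names TRAV5-4 and TRAV5D-4, so the absence of TRAV5D-4–TRAJ53 holds for the deposited names.

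The germline V genes of all 3 copies give 13 bases of the CDR3, and TRAV5-4 and TRAV5D-4 share their V bases there. Of the 332 rearrangements, a median of 12 V bases and 25 J bases matched the germline and 3 bases matched neither, with a range of the last up to 19. In 35 rearrangements (10.5%) every base could be read from the V or the J gene. The median CDR3 length was 13 amino acids for the family in each library and 14 for other TRA in each (means 13.3, 13.3 and 13.4 against 13.6 in each). The family mean was lower than that of other TRA in all 3 libraries, and the difference was not tested. TRAV5-1 did not share it, with means of 13.7, 13.7 and 13.8. The SD over rearrangements was 1.25 to 1.41 residues in both groups.

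TRAV5 α chains were paired broadly with β chains (TRB). A TRB was found in 94.4%, 94.5% and 84.1% of TRAV5 cells, against 93.9%, 92.9% and 86.6% of other cells with a TRA. Over distinct TRA–TRB pairs, the most frequent partner names were TRBV5 with 50 pairs, TRBV12-2+TRBV13-2 with 47 and TRBV13-1 with 36. TRBV1 and TRBV19 followed with 28 each. TRBV12-2+TRBV13-2 is a joint deposited name, beside which TRBV13-2 and TRBV12-2 also occur alone. TRBV13-2 alone had 24 pairs, so TRBV5 ranks first only while the joint name is counted apart from TRBV13-2. The exact stratified test called 0 of 21 TRBV genes (0%), and 2 had an unadjusted p under 0.05. These were TRBV13-3, with 7, 7 and 2 pairs or 16 against 27.5 expected (adjusted p = 0.33, exact test), and TRBV26, with 5 against 1.88 expected (adjusted p = 0.35, exact test).

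Rearrangements of more than 1 cell made up 25.7%, 16.9% and 19.4% of the family in replicates 1, 2 and 3, and 21.3%, 24.2% and 13.7% of other TRA. The order of family and rest thus changed between libraries. Of the copies, TRAV5-1 had 6 of 20, 9 of 29 and 2 of 5 such rearrangements, 17 against 11.8 expected (adjusted p = 0.58, exact test). TRAV5-4 had 16 of 69, 18 of 109 and 4 of 25, 38 against 44.0 expected (adjusted p = 0.90, exact test). TRAV5D-4 had 7 of 24, 4 of 45 and 1 of 6, 12 against 16.6 expected (adjusted p = 0.90, exact test). No TRAV gene was called among 55 (0%), and 2 had an unadjusted p under 0.05, neither of them a TRAV5 copy. Rearrangements of more than 5 cells were also compared with those expected. Their ratio of observed to expected was 1.45 for TRAV5-1, 0.915 for TRAV5-4 and 0 for TRAV5D-4, and no copy was called.

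Large TRAV5 clones were found in replicate 2. There 1 rearrangement had over 20 cells and 9 had 6 to 20, while the largest in replicate 1 had 5 cells and the largest in replicate 3 had 3. The largest, TRAV5-4–TRAJ48, had 35 cells, or 1.24% of the cells with a TRA (interval 0.866% to 1.72%) and 10.2% of the TRAV5 cells. All 34 of its cells with a TRB had the same TRBV1–TRBJ1-1 chain, which was in 36 cells of the library. The second, TRAV5-4–TRAJ32, had 20 cells, 18 of them with 1 TRBV19–TRBJ2-1 chain. The third, TRAV5-1–TRAJ45, had 15 cells, all with 1 TRBV3–TRBJ2-7 chain. The TRA CDR3s of these 3 are shown, with bases that matched neither the germline V nor J gene in capitals, each followed by its TRB CDR3 in lower case.
TRAV5-4–TRAJ48: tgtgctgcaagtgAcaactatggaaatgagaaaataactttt
TRBV1–TRBJ1-1: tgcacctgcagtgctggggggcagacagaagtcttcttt
TRAV5-4–TRAJ32: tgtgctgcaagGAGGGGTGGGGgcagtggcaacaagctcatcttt
TRBV19–TRBJ2-1: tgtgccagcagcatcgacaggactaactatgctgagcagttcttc
TRAV5-1–TRAJ45: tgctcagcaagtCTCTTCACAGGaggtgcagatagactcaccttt
TRBV3–TRBJ2-7: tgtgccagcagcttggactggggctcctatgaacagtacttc
The largest clone had 1 unmatched base in its TRA and the other two had 11 each. Their contigs had a median of 3, 3.5 and 4 UMIs and a minimum of 1. Cell Ranger's own clonotypes, which are counted by all chains of a cell, held 35, 18 and 15 cells.

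**Figure D4:**
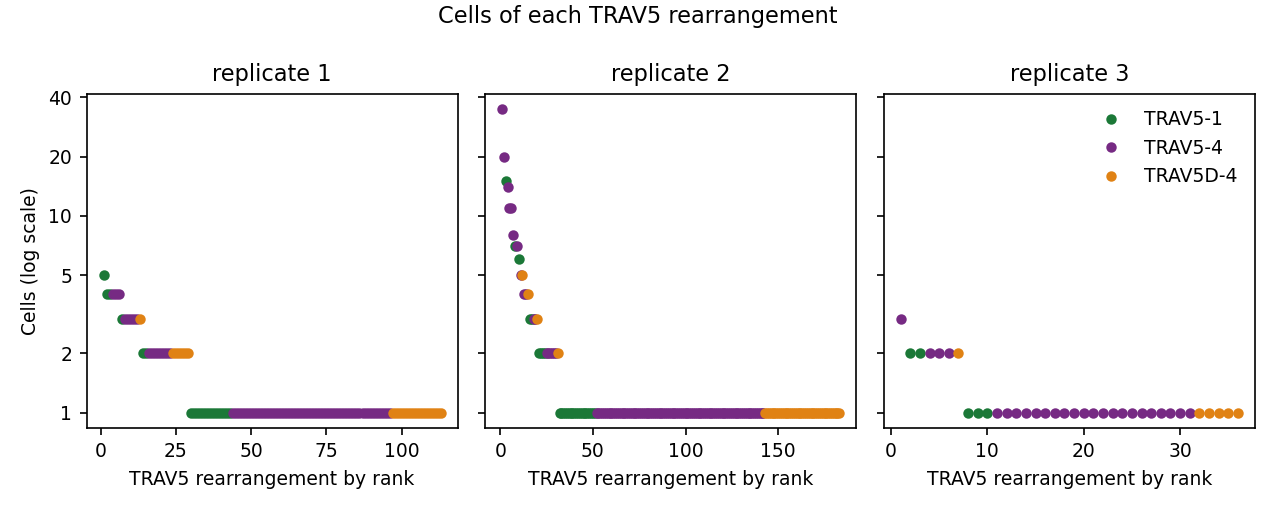
Cells of each TRAV5 rearrangement (vertical axis, log scale) in order of size within each library, coloured by copy. Replicate 2 has 1 rearrangement of 35 cells and 1 of 20, both TRAV5-4, and most rearrangements in every library have 1 cell.

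Of the other TRAV5-4–TRAJ48 rearrangements of replicate 2, 1 had 14 cells (TRBV31–TRBJ1-2) and 1 had 11 cells (TRBV19–TRBJ2-7). TRAV5 with TRAJ48 had 7 rearrangements there, in 64 cells. A second TRA was found in some clones. The 11-cell TRAV5-4–TRAJ48 clone had a TRAV7-4–TRAJ40 chain in 10 of its cells, and an 11-cell TRAV5-4–TRAJ39 clone, paired with TRBV13-1, had a TRAV7D-4–TRAJ52 chain in 8. In replicate 1 the largest was TRAV5-1–TRAJ13 with 5 cells, all with TRBV3–TRBJ2-7, followed by 5 rearrangements of 4 cells each: TRAV5-1–TRAJ38, TRAV5-1–TRAJ45, TRAV5-4–TRAJ32, TRAV5-4–TRAJ34 and TRAV5-4–TRAJ40. In replicate 3 the largest was TRAV5-4–TRAJ31 with 3 cells, of which 2 had the same TRBV14 chain, and 6 rearrangements had 2 cells.

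The same TRAV5 CDR3, with equal V gene, amino acids and J gene, was found in more than 1 library 9 times among 318 (2.83%, interval 1.30% to 5.30%). In other TRA this was 77 of 2873 (2.68%), in TRAV4 4 of 164 (2.44%), in TRAV6 9 of 503 (1.79%) and in TRAV7 8 of 364 (2.20%), all within the interval of TRAV5. Of the 9, 8 were TRAV5-4, 1 was TRAV5-1 and none was TRAV5D-4, of which 0 of 75 allows up to 4%. This limit holds for the deposited name. Matched by V family, 11 CDR3s were shared, because a TRAJ26 and a TRAJ45 chain named TRAV5D-4 in 1 library were named TRAV5-4 in another. Replicates 1 and 2 shared TRAV5-4 CDR3s with TRAJ31, TRAJ33, TRAJ45 and, 2 of them, TRAJ43. Replicates 1 and 3 shared those with TRAJ50 and TRAJ53, and replicates 2 and 3 that with TRAJ48. The TRAV5-1 CDR3, with TRAJ23, was in all 3 libraries. Of the 9, 7 were written with different nucleotides in each library. Other TRA had 39 CDR3s shared base for base, beside 77 shared by amino acids, and this was not tested against TRAV5. The other two were identical base for base and are shown with unmatched bases in capitals.
TRAV5-4–TRAJ31, replicates 1 and 2: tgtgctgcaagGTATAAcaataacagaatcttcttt
TRAV5-4–TRAJ50, replicates 1 and 3: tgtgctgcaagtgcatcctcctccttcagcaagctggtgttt
The TRAJ31 chain was in 2 cells of each library. In replicate 1 a TRB was found in 1 of them, TRBV5–TRBJ1-1, and in replicate 2 both had a TRBV5–TRBJ1-3 chain. The TRAJ50 chain had no unmatched base and was in 1 cell of each library. Its cell in replicate 3 had no TRB.

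Both chains were then compared. After the sequences had been seen, pairs of cells' receptors were called near neighbours when they had the same TRAV, TRAJ and TRBV gene, equal CDR3 lengths and at most 2 amino acid differences in each chain, and came from different TRA rearrangements or libraries. Of 360 TRAV5 pairs, 13 had a near neighbour (3.61%, interval 1.94% to 6.10%), 9 of them in another library, against 99 of 3360 other pairs (2.95%). TRAV5-1 held 8 of the 13, or 8 of 54 pairs (14.8%, 6.62% to 27.1%). TRAV5-4 held 5 of 226 (2.21%, 0.722% to 5.09%) and TRAV5D-4 0 of 80, which allows up to 3.75%. TRBV13-2 here and below includes the merged name TRBV12-2+TRBV13-2. Of 57 TRAV genes with at least 10 pairs, 1, TRAV9-4, had a higher share than TRAV5-1, at 7 of 28 pairs, and the median gene had 0%. These shares were not tested, since the count was chosen on these cells. All TRAV5-1 near neighbours depended on replicate 1. Without it TRAV5-1 had 0 pairs with a near neighbour and TRAV5-4 had 2. Without replicate 2, TRAV5-1 had 7 of 25 such pairs, and without replicate 3 it had 5 of 50.

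**Figure D5:**
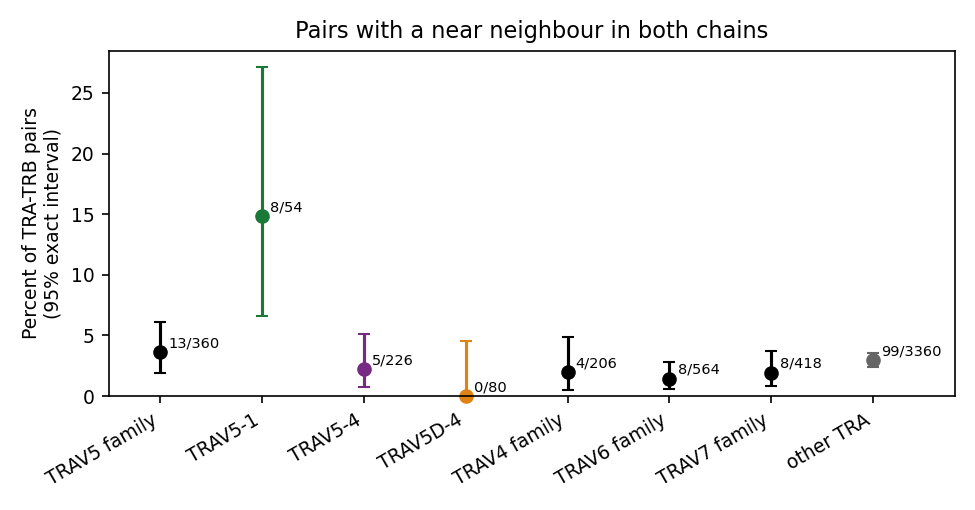
Percent of distinct TRA–TRB pairs that had a near neighbour in both chains (vertical axis, exact 95% interval, counts beside each point) for the TRAV5 family, its copies, 3 like families and all TRA outside the family. TRAV5-1 with 8 of 54 pairs lies highest, and TRAV5D-4 has 0 of 80.

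The TRAV5-1–TRAJ38 chains made up 5 of the 8 TRAV5-1 pairs. All 5 had a CDR3 of 14 amino acids. Of these, 3 were paired with TRBV13-2 chains and are shown first as TRA (unmatched bases in capitals) and then as TRB (bases that vary within the set in capitals).
replicate 1, TRA of 3 cells: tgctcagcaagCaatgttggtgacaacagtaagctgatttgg
replicate 1, TRA of 4 cells: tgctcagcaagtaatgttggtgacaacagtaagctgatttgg
replicate 2, TRA of 2 cells: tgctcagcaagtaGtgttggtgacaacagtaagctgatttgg
replicate 1, TRBJ2-7: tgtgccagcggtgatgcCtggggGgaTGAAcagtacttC
replicate 1, TRBJ2-5: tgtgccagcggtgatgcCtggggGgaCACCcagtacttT
replicate 2, TRBJ2-5: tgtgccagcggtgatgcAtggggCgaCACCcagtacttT
Both TRAs of replicate 1 had the same amino acids and differed at 1 base, and their TRBs differed at 1 residue and 5 bases. The TRBJ2-5 chains of replicates 1 and 2 had the same amino acids and differed at 2 bases, and their TRAs differed at 1 residue. The TRA of 4 cells had no unmatched base. Every cell with one of these TRBs carried the TRAV5-1 chain, 3, 4 and 2 cells in turn, with 4 to 23 TRA UMIs a cell. Of the 2 cells of replicate 2, 1 also had a second TRB, TRBV13-2–TRBJ2-3. The other two TRAV5-1–TRAJ38 chains, in 1 cell each of replicate 1, were paired with TRBV19–TRBJ2-2 chains of equal length that differed at 2 residues, as did these TRAs, which are shown with unmatched bases in capitals.
replicate 1, TRA with TRBV19: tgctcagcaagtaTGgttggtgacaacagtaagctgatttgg
replicate 1, TRA with TRBV19: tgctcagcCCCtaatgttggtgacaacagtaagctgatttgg

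The TRAV5-1–TRAJ23 CDR3 of all 3 libraries was paired with TRBV13-2 each time. It was in 1 cell of replicate 1, 1 cell of replicate 2 and 2 cells of replicate 3, with 1 to 3 TRA UMIs a cell. Capitals mark unmatched bases in the TRAs and the base that varies between the TRBJ1-3 chains.
replicate 1, TRA: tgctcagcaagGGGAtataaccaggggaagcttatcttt
replicate 2, TRA: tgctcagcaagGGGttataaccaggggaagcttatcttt
replicate 3, TRA: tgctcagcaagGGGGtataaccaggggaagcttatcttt
replicate 1, TRBJ1-3: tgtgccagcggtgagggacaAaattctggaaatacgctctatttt
replicate 3, TRBJ1-3: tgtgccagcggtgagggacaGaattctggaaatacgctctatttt
replicate 2, TRBJ1-4: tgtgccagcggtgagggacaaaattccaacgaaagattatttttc
The TRAs of replicates 1 and 3 differed at 1 base and coded for the same residues. Of the 2 cells of replicate 3, 1 had a TRB identical in every base to that of replicate 1, and the other's, which is shown, differed from it at 1 base. No cell barcode carried this chain in more than 1 library. Its bases differed between libraries, and only 1 barcode shared between libraries had any TRAV5 chain, so this could hardly have come out otherwise. The TRA of replicate 1 rested on 1 UMI, and its TRB also occurred on 5 barcodes outside called cells of that library.

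The TRAV5-4–TRAJ43 chains with TRBV15 are shown because 3 TRAs, with unmatched bases in capitals, met 1 identical TRB.
replicate 1, TRA of 2 cells: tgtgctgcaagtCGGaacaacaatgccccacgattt
replicate 1, TRA of 3 cells: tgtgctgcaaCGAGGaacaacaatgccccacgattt
replicate 2, TRA of 1 cell: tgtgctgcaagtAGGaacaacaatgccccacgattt
TRBV15–TRBJ1-1, replicates 1 and 2: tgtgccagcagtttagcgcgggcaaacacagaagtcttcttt
The TRB was the same in all 42 bases. In replicate 1 it was in 5 cells, 2 with the first TRA and 3 with the second, and in replicate 2 in 1 cell. The TRAs of replicate 1 differed at 1 residue and 3 bases. The first TRA of replicate 1 and that of replicate 2 had the same amino acids and differed at 1 base. Outside called cells the TRB was on 16 barcodes of replicate 1 and 1 of replicate 2. The last pair of near neighbours, TRAV5-4–TRAJ45 with TRBV1–TRBJ2-7 in 2 single cells of replicate 2, differed at 1 residue in each chain.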

How the data were processed

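CD45+ cells of sciatic nerves of neuropathic NOD.AireGW/+ mice were profiled by 10X Genomics scTCR-Seq in 3 libraries. Reads were mapped to mm10 by the authors with Cell Ranger (version not given in the sources used here), which called cells and assembled contigs. The authors deposited for each contig counts of UMIs and reads, V and J genes, CDR3 and length in bases. The deposited length was not turned into a result. The authors also deposited cells per Cell Ranger clonotype as counts. Consensus files were not used. Replicate 1 lacked the V sequence columns of replicates 2 and 3.

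Productive TRA and TRB contigs of called cells were kept, with all UMI counts of at least 1. No doublet caller was run, and cells with more than 1 TRA or TRB were kept; cells with exactly 1 of each were an alternative. The members and gene lists were chosen with earlier results of these data known. V genes, TRAJ genes and TRBV genes with at least 10 units were tested with an exact two-sided test of a common odds ratio of 1, stratified by library, with Benjamini-Hochberg adjustment over all genes of a table; it was tested on simulated data. Expected counts keep each library's totals, in which the members tested are included. Germline segments were read from GRCm38 with GENCODE coordinates, and junction bases were matched from the V end first and then from the J end. Where nothing was counted, 3 counts were taken as the upper limit.

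Named were all TRAV5 copies, the 5 most frequent TRAJ and TRBV genes and those with adjusted p under 0.05, TRAJ53, the 3 largest rearrangements of each library with ties, every shared CDR3 and the families TRAV4, TRAV6 and TRAV7. Other items, the test of TRAJ numbers above the median and near neighbours were chosen after their values were seen. TRBV12-2+TRBV13-2 was counted as TRBV13-2 where pairs of chains were compared by sequence. Alternatives were at least 3 UMIs, leaving out each library, other units of counting and limits of more than 2 and more than 5 cells. Precision was set by cells and UMIs, 461 to 2819 cells with a TRA a library. Python 3.11.15, numpy 2.4.6, pandas 2.3.3, scipy 1.17.1 and matplotlib 3.10.9 were used. Gene expression was not analysed here.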

Additional observations from a re-analysis of the deposited data

How the results depend on the processing

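Of 106 alternatives, 79 kept the direction and side of the threshold or stayed within the spread. TRAV5 shares stayed between 9.16% and 10.1% of rearrangements and between 8.84% and 10.9% of cells, and the share of TRAV5-4 in the family between 59.2% and 65.3%. With at least 3 UMIs the mean CDR3 length was 13.2 instead of 13.3 residues, TRAJ genes called for the family rose from 0 to 3, calls over all copies fell from 2 to 1 and shared CDR3s from 9 to 5. TRAV5-1 alone gave 1 TRAJ call and TRAV5-4 alone 5, and adjustment within each copy gave 6 in all. Amino acid rearrangements gave 1 call over all copies, with TRAV5-1–TRAJ38 at an adjusted p of 0.052. By nucleotide CDR3 and J gene, 3 CDR3s were shared, and by V family, amino acids and J gene, 11 were. Leaving out 1 library gave 0 to 4 TRAJ calls for the family, 0 to 2 over the copies, 2 to 6 shared CDR3s, 14 to 19 TRAV genes called for TRAJ numbers above the median and 2 to 10 near neighbours. The lowest counts of shared CDR3s and near neighbours came without replicate 1, which left 2 of each. The ratio of observed to expected rearrangements of more than 1 cell, never called, was 0.863 for TRAV5-4 and turned to 1.02 with at least 3 UMIs. Leaving out 1 library gave 0.757 (replicate 1) to 1.08 (replicate 2) for TRAV5-4. For TRAV5D-4, at 0.723 in all libraries, it gave 0.439 (replicate 1) to 1.32 (replicate 2). The causes of these changes were not tested. No TRBV partner and no TRAV gene for expansion was called under any alternative run. No paired analysis was possible because all libraries are of 1 condition. Depth limits what a missing TRAV5D-4 join can show, with 75 rearrangements in all.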

Other observations

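Productive TRAV5 contigs also occurred on barcodes that were not called as cells: 382 of 4407 such barcodes with a TRA in replicate 1, 120 among 760 in replicate 2, and 16 among 294 in replicate 3, with a median of 1, 3 and 1 UMI a contig. TRAV5-4 was again the most frequent copy there, on 293, 92 and 9 barcodes. The most frequent TRAV5-4 chain outside cells was on 30 barcodes in replicate 1, where it was in 4 cells, and on 15 in replicate 2, where it was the 35-cell TRAV5-4–TRAJ48 chain.

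Nonproductive TRA contigs of cells that still had a CDR3 held 9 TRAV5 among 192 distinct ones in replicate 1 (4.69%, interval 2.17% to 8.71%). Replicate 2 had 16 among 239 (6.69%, 3.87% to 10.6%), and replicate 3 had 3 among 66 (4.55%, 0.947% to 12.7%). The productive shares were higher in all 3 libraries, at 9.18%, 10.8% and 9.14%, but the intervals overlapped in each, and the difference was not tested.

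TRAV5 chains in cells with more than 1 productive TRA, which can include doublets, were 31 of 162 in replicate 1 (19.1%, interval 13.4% to 26.0%), 53 among 345 in replicate 2 (15.4%, 11.7% to 19.6%), and 2 among 44 in replicate 3 (4.55%, 0.555% to 15.5%), against 17.7%, 17.2% and 8.70% of other TRA chains.

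A TRAJ26 chain with the same nucleotide CDR3 was named TRAV5D-4 in 2 cells of replicate 1 and TRAV5-4 in 1 cell of replicate 2. Both copies share their bases at the start of the CDR3, and no V sequence was given for replicate 1, so the name there could not be checked. A TRAJ45 chain with the same amino acids was likewise named TRAV5-4 in 1 cell of replicate 1 and TRAV5D-4 in 1 cell of replicate 2. No TRAV5 CDR3 carried a second V name within a library, although 19 of 3306 TRA junctions did.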
